A study of Mus musculus with 6 samples.

Results

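Cyclin-dependent kinase (CDK) inhibitor genes were examined in liver RNA of Dnajb4-/- and Dnajb4+/+ mice. The 8 genes were chosen by name, with their values in these arrays already known: Cdkn1a, Cdkn1b and Cdkn1c of the CIP/KIP family, Cdkn2a, Cdkn2b, Cdkn2c and Cdkn2d of the INK4 family, and Cdkn3. All 8 were among the 18193 genes measured, and they were read by 10 of the 34945 probe sets that carry 1 gene symbol. A probe set is a group of short array features that together give 1 value for a transcript. Of the 8 genes, 6 had 1 probe set and 2 (Cdkn1a and Cdkn1b) had 2.

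Dnajb4 encodes HLJ1, a heat shock protein of the DNAJ (HSP40) co-chaperone family. The knockout was made by gene targeting in mouse embryonic stem cells and affects the whole body, so that by design no cell type of the liver has the intact gene. Livers of 3 Dnajb4-/- and 3 Dnajb4+/+ mice, labelled as male C57BL/6 animals of 6 to 8 weeks and as independent mice, were each read on 1 Affymetrix mouse expression array. Whole tissue was used, and in such samples fewer cells of a type and less RNA per cell cannot be told apart.

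CDKs drive the cell cycle when a cyclin is bound to them, and CDK inhibitors hold them back. Proteins of the CIP/KIP family (p21 from Cdkn1a, p27 from Cdkn1b and p57 from Cdkn1c) bind cyclin and CDK together and act on several complexes. Proteins of the INK4 family (p16INK4a from Cdkn2a, p15 from Cdkn2b, p18 from Cdkn2c and p19INK4d from Cdkn2d) bind Cdk4 and Cdk6, keep cyclin D from activating them, and so leave the retinoblastoma protein RB able to restrain E2F factors. Cdkn2a also gives, from another reading frame, p19ARF, which stabilizes p53. Cdkn3 belongs to neither family: it encodes a phosphatase that takes the activating phosphate off CDKs. In the resting adult liver most hepatocytes are out of the cycle, and p21 is known as a p53 target and as a brake on their return to it after injury.

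The bases upstream of a transcription start are shown for the 3 genes whose RNA was called different between the genotypes (Cdkn1a, Cdkn1b and Cdkn2c). The RefSeq table of GRCm38.p6 gave 10 start windows for 7 of the 8 genes. Each run holds the 250 bases before a start, 5′ to 3′ on the strand of the gene. Capitals mark matches on either strand to a GC box (GGGCGG), the letters TATAA and the CCAAT box, and in the first run also 1 match to the p53 consensus.
Cdkn1a, first start, chr17:29090729-29090978, plus strand: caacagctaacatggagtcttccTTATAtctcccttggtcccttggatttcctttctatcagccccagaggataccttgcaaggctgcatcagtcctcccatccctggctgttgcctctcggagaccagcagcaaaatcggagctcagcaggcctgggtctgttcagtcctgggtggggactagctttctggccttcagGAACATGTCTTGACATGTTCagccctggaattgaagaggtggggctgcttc
Cdkn1a, second start, chr17:29093519-29093768, plus strand: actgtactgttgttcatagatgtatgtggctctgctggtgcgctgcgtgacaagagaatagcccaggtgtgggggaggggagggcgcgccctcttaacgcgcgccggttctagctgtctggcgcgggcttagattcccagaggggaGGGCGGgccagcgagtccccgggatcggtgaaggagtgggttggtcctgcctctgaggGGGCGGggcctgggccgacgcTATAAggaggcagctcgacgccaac
Cdkn1b, chr6:134920151-134920400, plus strand: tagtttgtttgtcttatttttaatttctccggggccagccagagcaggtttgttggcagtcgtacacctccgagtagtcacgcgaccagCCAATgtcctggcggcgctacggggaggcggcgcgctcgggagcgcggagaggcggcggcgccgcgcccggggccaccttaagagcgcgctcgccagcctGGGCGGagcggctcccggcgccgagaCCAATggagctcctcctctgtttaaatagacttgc
Cdkn2c, first start, chr4:109666757-109667006, minus strand: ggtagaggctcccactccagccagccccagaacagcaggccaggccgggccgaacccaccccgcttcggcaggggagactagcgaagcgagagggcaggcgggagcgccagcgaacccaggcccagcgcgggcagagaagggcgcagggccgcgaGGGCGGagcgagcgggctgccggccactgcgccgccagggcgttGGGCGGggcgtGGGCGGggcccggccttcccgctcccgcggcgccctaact

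The window before the first Cdkn1a start held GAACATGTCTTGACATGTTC, at 29090928 to 29090947 of chromosome 17, which met 19 of the 20 positions of the p53 consensus. At least 19 positions were met in 0.0761% of the 32851 RefSeq start windows of this length. Of the 10 windows of the 8 genes it was the only one to reach 19, and the next best, that of Cdkn1b, reached 17. The second Cdkn1a window held 2 GC boxes and the letters TATAA close to the start, the Cdkn1b window 1 GC box and 2 CCAAT boxes, and the first Cdkn2c window 3 GC boxes. A GC box stood in 32.7%, a CCAAT box in 33.8% and TATAA in 22.8% of all windows. The E-box CACGTG, to which clock activators bind, and the palindrome TTCNNNGAA, read by STAT factors and BCL6, were found in 0 of the 10 windows and in 6.02% and 7.02% of all windows. The nuclear receptor half-site AGGTCA was found in the second Cdkn2a and the second Cdkn2c window, neither shown above, and in 14.0% of all windows. These are matches of letters only, and the arrays did not measure the binding of any factor.

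Dnajb4 itself, as the targeted gene, was checked first. Its brightest probe set gave intensities of 453 to 480 in Dnajb4-/- arrays and 566 to 612 in Dnajb4+/+ arrays, a log2 difference of -0.34 (adjusted p = 0.00768 from limma over probe sets). Its other 2 probe sets averaged 108 in Dnajb4-/- and 112 in Dnajb4+/+ livers (adjusted p = 0.570 from limma), and 38.1 in Dnajb4-/- and 38.9 in Dnajb4+/+ livers (adjusted p = 0.907 from limma). Which part of the gene was deleted is not given in the sources used here, so these probe sets do not settle the genotype. Xist, the RNA that silences an X chromosome in female cells, averaged 16.2 in Dnajb4-/- and 385 in Dnajb4+/+ livers, which goes against the male label of all 3 Dnajb4+/+ arrays. The brightest probe sets of 3 Y-linked genes were read in both genotypes and did not overlap, with Eif2s3y at 939.8 to 1005 in Dnajb4-/- and 679.8 to 772 in Dnajb4+/+ arrays (adjusted p = 0.00605 from limma over probe sets), Kdm5d at 125 to 138 in Dnajb4-/- and 100.1 to 111 in Dnajb4+/+ arrays (adjusted p = 0.0177) and Uty at 112 to 122 in Dnajb4-/- and 91.6 to 107 in Dnajb4+/+ arrays (adjusted p = 0.103). The Dnajb4+/+ arrays thus read Xist and Y-linked RNA together, and whether their RNA was mixed by sex was not tested. The ratio of 3′ to 5′ signal, which grows as RNA is degraded, was 1.43 to 1.48 in Dnajb4-/- and 1.16 to 1.19 in Dnajb4+/+ arrays for Gapdh, and 3.10 to 3.22 in Dnajb4-/- and 2.59 to 2.68 in Dnajb4+/+ arrays for Actb. Xist, both 3′ to 5′ ratios and the brightest probe sets of Dnajb4 and of the Y-linked genes divide the 6 arrays as the genotype does, so what they reflect and the genotype cannot be told apart in any comparison made here.

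Among the CDK inhibitor genes, Cdkn1a was higher in Dnajb4-/- livers 3.25-fold, Cdkn1b and Cdkn2c were lower at 0.792 and 0.723 of the Dnajb4+/+ level, and the other 5 genes did not pass the threshold. A gene was called when its adjusted p from limma over all genes was under 0.05. By this rule 1 of the 8 genes was called higher and 2 lower, where 5.09% of all genes were called higher and 9.57% lower (34.7% of all calls were higher, and 52.2% with the arrays centred on their brighter probe sets). Of the 10 probe sets, 2 were called higher and 3 lower, where 5.20% of all probe sets were called higher and 8.34% lower, and 2 in place of 3 were lower in 8 of 13 alternatives. Every Dnajb4-/- array lay above every Dnajb4+/+ array for 1 gene and below it for 3 genes (Cdkn1b, Cdkn1c and Cdkn2c), which 16.1% and 19.4% of all genes did. Since the 8 genes were selected on this contrast, their calls are a description and their values carry no p here.

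**Figure D1:**
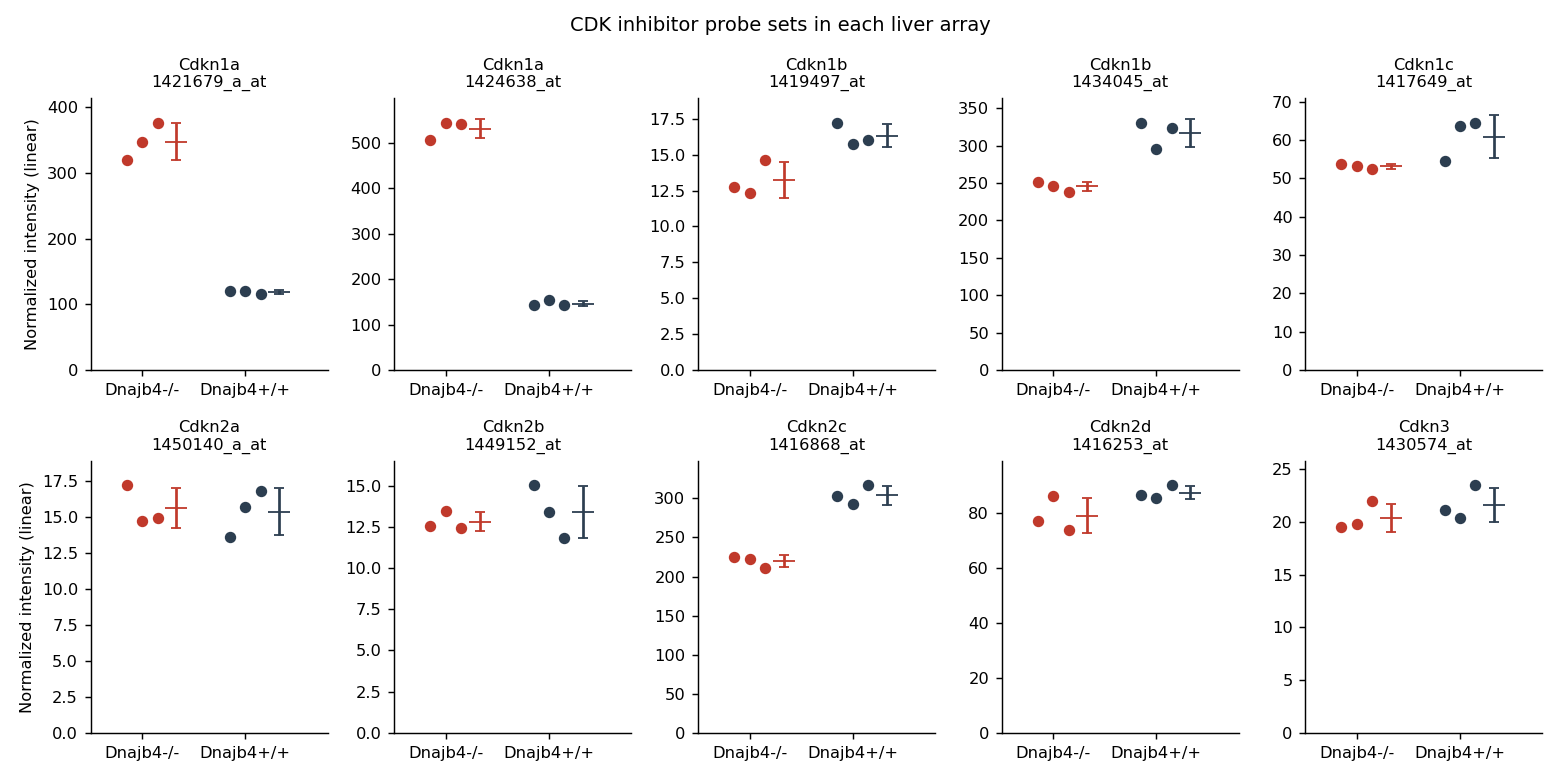
Normalized intensity (linear, vertical axis from 0) of each of the 10 CDK inhibitor probe sets in 3 Dnajb4-/- arrays (red) and 3 Dnajb4+/+ arrays (dark blue), 1 point per array, with the mean and SD beside the points. Both Cdkn1a panels separate the genotypes upward in Dnajb4-/-, with means of 348 and 531 in Dnajb4-/- against 119 and 147 in Dnajb4+/+ livers. Both Cdkn1b panels, Cdkn1c and Cdkn2c separate them downward. For Cdkn1c the highest Dnajb4-/- value (53.7) is just below the lowest Dnajb4+/+ value (54.4).

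Cdkn1a (chromosome 17, 29090979 to 29100722, GRCm38.p6) encodes p21, which binds cyclin E and cyclin A complexes with Cdk2 and also the replication clamp PCNA. Its dimmer probe set, the one whose ID ends in _a_at, read 320.1, 347 and 376 in Dnajb4-/- arrays, against 120.2, 121 and 116 in Dnajb4+/+ arrays. Its brighter probe set read 506, 544 and 542 in Dnajb4-/- arrays, against 143, 154 and 142 in Dnajb4+/+ arrays. On both probe sets the lowest Dnajb4-/- array was more than 2-fold above the highest Dnajb4+/+ array. The means were 348 ± 28.2 in Dnajb4-/- against 119 ± 2.51 in Dnajb4+/+ livers on the dimmer probe set, and 531 ± 21.2 in Dnajb4-/- against 147 ± 6.45 in Dnajb4+/+ livers on the brighter one (n = 3 each, SD). The log2 differences were 1.54 (standard error 0.07, 2.91-fold) on the dimmer and 1.86 (standard error 0.05, 3.62-fold) on the brighter probe set.

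Averaged over its probe sets, Cdkn1a stood at 429 ± 24.9 in Dnajb4-/- livers, against 132 ± 3.96 in Dnajb4+/+ livers (n = 3 each, SD), a log2 difference of 1.70 with a standard error of 0.05. By such means only 2 genes of the table rose further, and by the size of the difference in either direction Cdkn1a ranked 30th. The rank depends on this rule: with the brightest probe set of each gene, Arntl rose further (2.34, against 1.86 for Cdkn1a). The pair of probe sets did not move by the same factor. The brighter divided by the dimmer gave 1.58, 1.57 and 1.44 in Dnajb4-/- arrays and 1.19, 1.27 and 1.22 in Dnajb4+/+ arrays, with no overlap. The files do not assign either probe set to one of the transcripts that begin at the start sites shown above. The 3′ to 5′ ratios of Gapdh and Actb did not overlap between the genotypes either. What the shift between the Cdkn1a probe sets reflects was not tested. Leaving out any 1 array, or changing the scaling, the probe set rule or the test, gave log2 differences of 1.59 to 1.86 and a call in 16 of 16 alternatives.

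Cdkn1b (chromosome 6, 134920401 to 134925525) encodes p27, which holds Cdk2 inactive in resting cells. Its brighter probe set read 251, 246 and 239 in Dnajb4-/- arrays, against 331, 295 and 324 in Dnajb4+/+ arrays. Its dimmer probe set read 12.7, 12.3 and 14.6 in Dnajb4-/- arrays, against 17.2, 15.8 and 15.99 in Dnajb4+/+ arrays. Neither probe set overlapped between the genotypes, and the log2 differences were -0.37 (standard error 0.06) on the brighter and -0.31 (standard error 0.08) on the dimmer one. The brighter one was called lower in 13 of 13 alternatives, and the dimmer one lost its call in 8, among them those without any 1 array other than Dnajb4-/- replicate 3. For the gene, the log2 difference was -0.34 with a standard error of 0.05, and it was called lower in 16 of 16 alternatives, at -0.37 to -0.25.

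Cdkn1c (chromosome 7, 143458339 to 143461059), an imprinted gene, encodes p57, which is best known from development. It read 53.7, 53.3 and 52.5 in Dnajb4-/- arrays, against 54.4, 63.6 and 64.5 in Dnajb4+/+ arrays. The 3 Dnajb4-/- values lay close to each other and just below the lowest Dnajb4+/+ value, and the spread sat almost wholly in the Dnajb4+/+ arrays (53.2 ± 0.619 in Dnajb4-/- and 60.8 ± 5.60 in Dnajb4+/+ livers, n = 3 each, SD). The log2 difference was -0.19 (standard error 0.07). Cdkn1c was not called, and in 1 of 16 alternatives, without Dnajb4+/+ replicate 1, it was called lower at -0.27.

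Cdkn2c (chromosome 4, 109660876 to 109666756) encodes p18, the INK4 protein whose gene had the largest difference of its family here. It read 225, 222 and 211 in Dnajb4-/- arrays, against 302, 292 and 317 in Dnajb4+/+ arrays. The genotypes were separated by a gap wider than the range within either of them. The means were 219 ± 7.65 in Dnajb4-/- and 304 ± 12.1 in Dnajb4+/+ livers (n = 3 each, SD), a log2 difference of -0.47 with a standard error of 0.05. Over 16 alternatives it ran between -0.50 and -0.42 and was called lower in each.

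Cdkn2d (chromosome 9, 21288459 to 21291421) encodes p19INK4d. It read 77.3, 86.2 and 73.9 in Dnajb4-/- arrays, against 86.4, 85.6 and 90.1 in Dnajb4+/+ arrays. The second Dnajb4-/- array fell inside the Dnajb4+/+ range, so the genotypes overlapped. The means were 79.1 ± 6.38 in Dnajb4-/- and 87.4 ± 2.38 in Dnajb4+/+ livers (n = 3 each, SD), a log2 difference of -0.15 (standard error 0.06) that passed the threshold in 0 of 16 alternatives.

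Cdkn2a (chromosome 4, 89274473 to 89294619) and Cdkn2b (chromosome 4, 89306289 to 89311032) are neighbours and encode p16INK4a with p19ARF, and p15. Cdkn2a read 17.2, 14.7 and 14.9 in Dnajb4-/- arrays, against 13.6, 15.7 and 16.8 in Dnajb4+/+ arrays. Cdkn2b read 12.6, 13.5 and 12.4 in Dnajb4-/- arrays, against 15.01, 13.4 and 11.8 in Dnajb4+/+ arrays. The genotypes overlapped for both genes, with log2 differences of 0.024 and -0.060 (standard error 0.09 for each). The files do not say whether the single Cdkn2a probe set reads p16INK4a, p19ARF or both.

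Cdkn3 (chromosome 14, 46760461 to 46771530), whose RNA is usually found in dividing cells, read 19.5, 19.8 and 21.9 in Dnajb4-/- arrays, against 21.1, 20.4 and 23.5 in Dnajb4+/+ arrays. The genotypes overlapped and the log2 difference was -0.083 (standard error 0.07). The deposited table gives no detection call, so the dim genes were set beside 80 probe sets of olfactory and vomeronasal receptor genes, which belong to sensory neurons. The 95th percentile of those was 29.4 to 35.4 over the arrays. Cdkn2a, Cdkn2b, Cdkn3 and the dimmer Cdkn1b probe set were below it on 6 of 6 arrays, so their level could not be told from that of genes foreign to liver. At this dim signal the Cdkn1b probe set was called lower, and Cdkn2a, Cdkn2b and Cdkn3 were not called. Both Cdkn1a probe sets, the brighter Cdkn1b probe set, Cdkn1c, Cdkn2c and Cdkn2d were above it on 6 of 6 arrays.

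**Figure D2:**
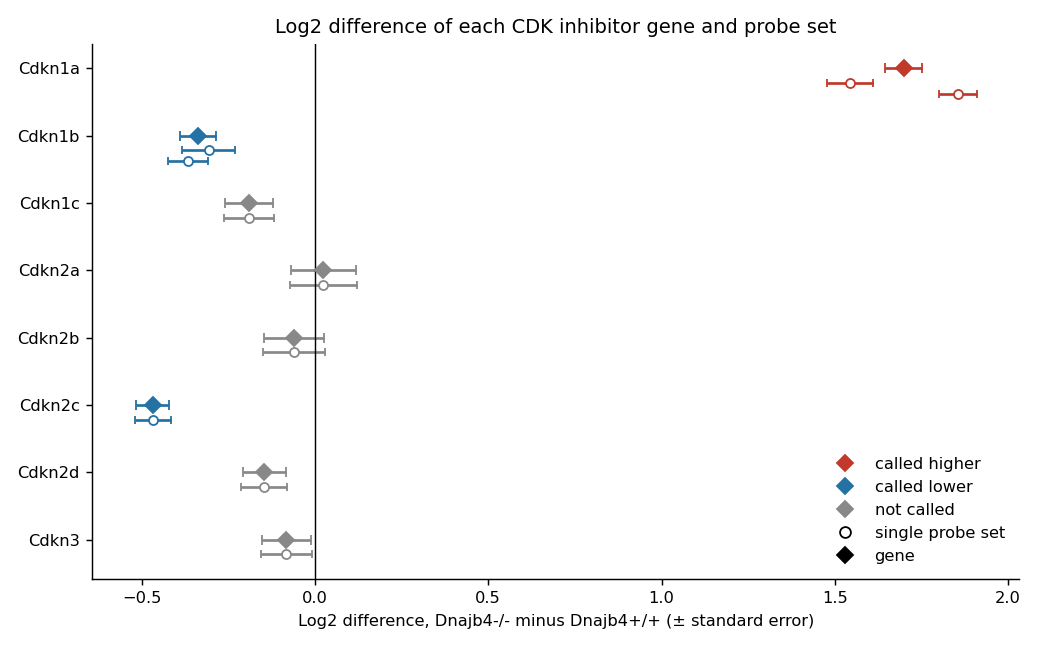
Log2 difference (Dnajb4-/- minus Dnajb4+/+, horizontal axis) of each CDK inhibitor gene (diamonds) and of its single probe sets (open circles), with standard errors from limma, coloured by call. Cdkn1a lies at 1.70, Cdkn1b at -0.34 and Cdkn2c at -0.47, and the 5 genes in grey were not called.

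**Figure D3:**
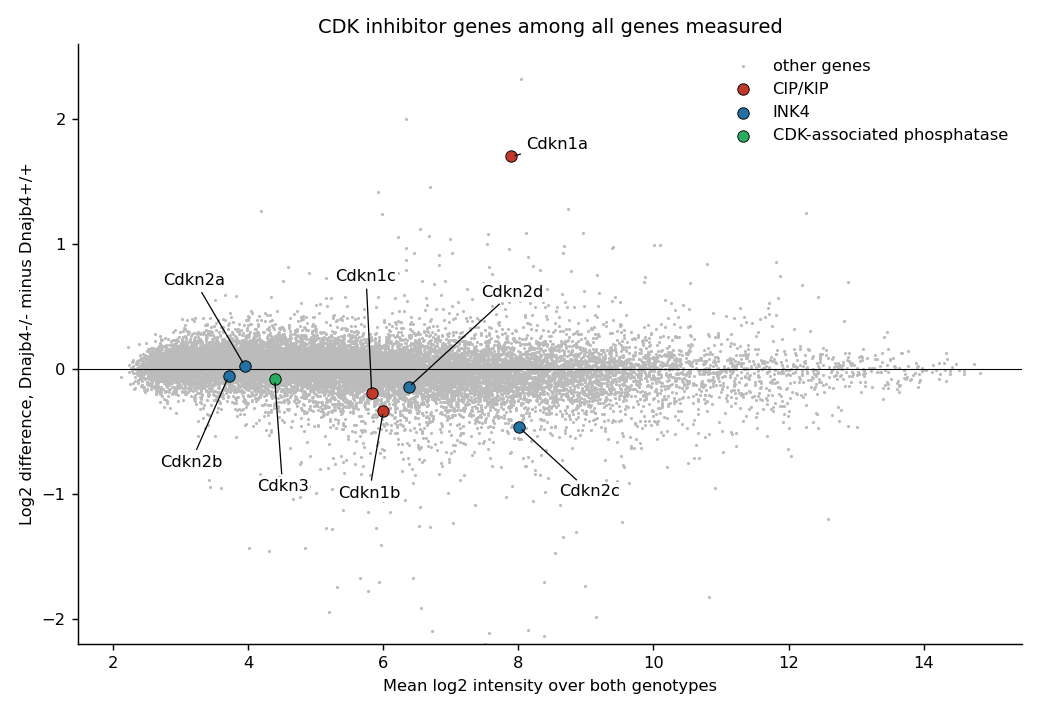
Log2 difference (Dnajb4-/- minus Dnajb4+/+, vertical axis) against the mean log2 intensity over both genotypes for the 18193 genes, with the 8 CDK inhibitor genes coloured by family (14 genes lie below the axis). Cdkn1a stands apart from the cloud at 1.70, while Cdkn2a, Cdkn2b and Cdkn3 lie at its dim end near 0.

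Genes around the CDK inhibitors were followed, as RNA, through a list of 20 CDK, cyclin and partner genes, of which 19 were measured. In Dnajb4-/- livers 8 of the 19 were called lower, 0 higher, and 11 were not called, beside 9.57% lower and 5.09% higher over all genes. Their median log2 difference was -0.15, and that of all genes 0.0075. Ccnd1, which encodes cyclin D1, the partner that INK4 proteins keep from Cdk4 and Cdk6, averaged 185 ± 7.22 in Dnajb4-/- and 295 ± 4.0 in Dnajb4+/+ livers (n = 3 each, SD), a log2 difference of -0.67 (adjusted p = 0.000158 from limma). Ccne2, which encodes cyclin E2, a Cdk2 partner bound by p21 and p27, averaged 16.3 ± 1.40 in Dnajb4-/- and 29.8 ± 4.55 in Dnajb4+/+ livers (-0.86, adjusted p = 0.00386 from limma). It was above the 95th percentile of the sensory receptor genes on 0 of 3 Dnajb4-/- and 2 of 3 Dnajb4+/+ arrays. The mitotic cyclin gene Ccnb2 averaged 29.9 ± 1.97 in Dnajb4-/- and 50.7 ± 4.32 in Dnajb4+/+ livers (n = 3 each, SD; -0.76, adjusted p = 0.00114 from limma), and was above the 95th percentile of the sensory receptor genes on 0 of 3 Dnajb4-/- and 3 of 3 Dnajb4+/+ arrays. Wee1, whose kinase puts an inhibitory phosphate on Cdk1 (-1.41, adjusted p = 0.000146 from limma), was lower too.

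The other 4 genes called lower in this list were Cdk4, which INK4 proteins bind (139.8 in Dnajb4-/- and 180.1 in Dnajb4+/+ livers), Pcna, the clamp that p21 binds (902 in Dnajb4-/- and 1134 in Dnajb4+/+ livers), Cdk1, the kinase of mitosis (109.8 in Dnajb4-/- and 142.9 in Dnajb4+/+ livers), and Ccne1, which encodes cyclin E1 (51.8 in Dnajb4-/- and 66.4 in Dnajb4+/+ livers). Their log2 differences lay between -0.38 and -0.33. The calls of Cdk4 and Pcna held in 16 of 16 alternatives, that of Cdk1 was lost when Dnajb4-/- replicate 1 or 2 or Dnajb4+/+ replicate 2 or 3 was left out (adjusted p = 0.0809 to 0.104 from limma), and that of Ccne1 when any 1 of the 6 arrays was (adjusted p = 0.0512 to 0.111). Cdk2, the main target of p21 and p27, stood at 31.8 in Dnajb4-/- and 32.4 in Dnajb4+/+ livers (-0.028), a mean of a bright probe set (194 in Dnajb4-/- and 195 in Dnajb4+/+ livers, -0.0023) and one in the range of the sensory receptor genes. Cdk6 stood at 137 in Dnajb4-/- and 148 in Dnajb4+/+ livers (-0.11), and neither gene passed the threshold. All 3 probe sets of Ccnd1 and both of Wee1 were called lower on their own. The brighter Wee1 probe set (-1.77) was above the 95th percentile of the sensory receptor genes on every array. The dimmer one (-1.05) was above it on 0 of 3 Dnajb4-/- and 2 of 3 Dnajb4+/+ arrays. For Ccne1 the dimmer probe set was called lower (-0.60, adjusted p = 0.0465 from limma over probe sets) and the brighter was not called (-0.13, adjusted p = 0.171).

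Of 18 genes of the RB and E2F group, on which CDK activity converges, 2 were called lower, 0 higher, and 16 were not called (median log2 difference -0.031). Over all genes 9.57% were called lower and 5.09% higher. Rbl2, which encodes the RB relative p130, averaged 219 ± 13.3 in Dnajb4-/- and 261 ± 11.7 in Dnajb4+/+ livers (-0.26, adjusted p = 0.0305 from limma), and Lin37, a subunit of the DREAM complex that holds p130 targets silent, 99.7 ± 3.11 in Dnajb4-/- and 120.4 ± 10.3 in Dnajb4+/+ livers (-0.27, adjusted p = 0.0373 from limma; n = 3 each, SD). The Rbl2 call was lost when replicate 1 or 3 of either genotype was left out (adjusted p = 0.0779 to 0.0988 from limma), and that of Lin37 when any 1 array other than Dnajb4+/+ replicate 2 was (adjusted p = 0.0707 to 0.109). The brighter Rbl2 probe set was called lower (-0.24, adjusted p = 0.0144 from limma over probe sets) and the dimmer was not called (-0.27, adjusted p = 0.102). Of 22 genes of DNA replication and mitosis, 4 were lower, 0 higher, and 18 not called (median -0.057). The 4 were Birc5, which encodes survivin (-0.64, adjusted p = 0.0155 from limma), the replicative helicase gene Mcm6 (-0.33, adjusted p = 0.0187), the proliferation marker Mki67 (-0.32, adjusted p = 0.00921) and the centromeric histone gene Cenpa (-0.18, adjusted p = 0.0292). Birc5, Mki67 and the gene means of Mcm6 and Cenpa were between 18.8 and 31.3 in both genotypes, near or below the 95th percentile of the sensory receptor genes. Birc5 was above that percentile on 0 of 3 Dnajb4-/- and 1 of 3 Dnajb4+/+ arrays, and Mki67 on none. The brightest probe sets of Mcm6 (61.98 in Dnajb4-/- and 87.3 in Dnajb4+/+ livers, -0.49, adjusted p = 0.00171 from limma over probe sets) and of Cenpa (84.8 in Dnajb4-/- and 115 in Dnajb4+/+ livers, -0.44, adjusted p = 0.0224) were above it on every array. Both were called lower, with larger differences than the gene means. For the gene means, the Mki67 call held in every alternative, while leaving out Dnajb4+/+ replicate 3 ended that of Birc5 (adjusted p = 0.0533 from limma), leaving out replicate 1 or 3 of either genotype ended that of Mcm6 (adjusted p = 0.0502 to 0.0654) and leaving out any 1 array other than Dnajb4-/- replicate 3 ended that of Cenpa (adjusted p = 0.0577 to 0.101).

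Transcription of Cdkn1a is known to be raised or held down by many factors, of which 27 were listed and 24 measured. In Dnajb4-/- livers 3 of them were called higher, 5 lower, and 16 not called (median -0.015), beside 5.09% higher and 9.57% lower over all genes. Bcl6, a transcriptional repressor with higher levels in male liver, averaged 137 ± 1.61 in Dnajb4-/- and 63.2 ± 3.38 in Dnajb4+/+ livers (1.12, adjusted p = 2.62e-05 from limma), and Myc, which represses Cdkn1a together with the protein of Zbtb17, 254 ± 6.19 in Dnajb4-/- and 151 ± 11.2 in Dnajb4+/+ livers (0.76, adjusted p = 0.000445 from limma; n = 3 each, SD). Sp3, a GC box factor, was the third (0.28, adjusted p = 0.00909 from limma). The calls of Bcl6, Myc and Sp3 held in 16 of 16 alternatives, and both probe sets of Bcl6 were called on their own.

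Lower in Dnajb4-/- livers were Nr1d1, which encodes the clock repressor REV-ERBα (136 ± 2.41 in Dnajb4-/- livers, against 175 ± 5.04 in Dnajb4+/+ livers, n = 3 each, SD; -0.37, adjusted p = 0.00156 from limma), the zinc finger gene Klf6 (-0.33, adjusted p = 0.00512), Nfe2l2, which encodes NRF2 (-0.30, adjusted p = 0.0143), Egr1 (-0.30, adjusted p = 0.00707) and the hepatocyte factor gene Cebpa (-0.23, adjusted p = 0.00726). The Klf6 call was lost on its brightest probe set (-0.090, adjusted p = 0.237 from limma), and that of Nfe2l2 without Dnajb4-/- replicate 1 or 3 (adjusted p = 0.0535 and 0.0516). Stat3 stood at 185 in Dnajb4-/- and 182 in Dnajb4+/+ livers (0.029, adjusted p = 0.646 from limma), but its probe sets disagreed. The brightest ones differed by 0.076 and 0.0087 and were not called. A dimmer Stat3 probe set was called lower (-0.16, adjusted p = 0.0490 from limma over probe sets). The dimmest, in the range of the sensory receptor genes, was not called (0.19). Trp53 was not analysed here.

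**Figure D4:**
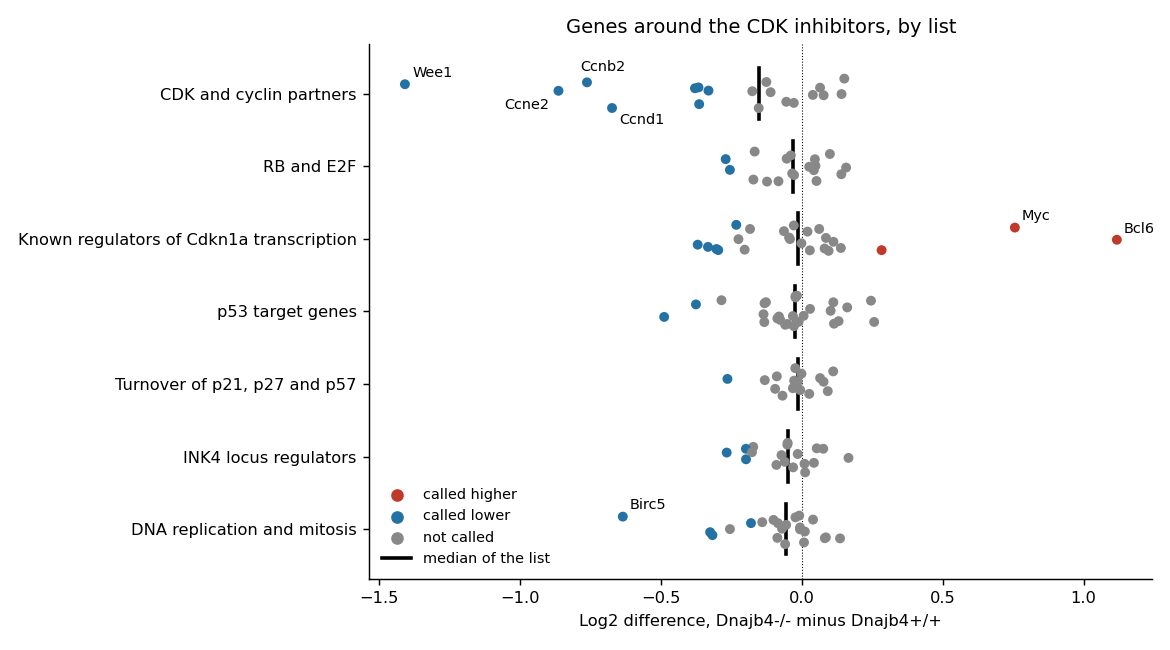
Log2 difference (Dnajb4-/- minus Dnajb4+/+, horizontal axis) of each measured gene in 7 lists around the CDK inhibitors, 1 point per gene coloured by call, with a bar at the median of each list (vertical offsets within a list only keep points apart). The CDK and cyclin list has the lowest median, -0.15, and the medians of the other 6 lists lie between -0.057 and -0.014.

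Cdkn1a is a p53 target, and 29 other genes activated by p53 were listed. Of the 28 measured, 0 were called higher, 2 lower, and 26 were not called, with a median log2 difference of -0.025. Among all genes 5.09% were called higher and 9.57% lower. Mdm2, which encodes the ligase that keeps p53 low and is itself a p53 target, stood at 61.6 in Dnajb4-/- and 63.9 in Dnajb4+/+ livers (-0.051, adjusted p = 0.621 from limma), and Ccng1, which encodes cyclin G1, at 284 in Dnajb4-/- and 311 in Dnajb4+/+ livers (-0.13, adjusted p = 0.133 from limma). The 2 called genes were the kinase gene Plk3 (254 ± 4.58 in Dnajb4-/- and 357 ± 21.8 in Dnajb4+/+ livers, n = 3 each, SD; -0.49, adjusted p = 0.00150 from limma) and Ddb2, of DNA repair (-0.38, adjusted p = 0.0160 from limma), whose call was lost without Dnajb4-/- replicate 1 or 3 (adjusted p = 0.0593 and 0.0508). The brighter Ddb2 probe set was called lower (-0.51, adjusted p = 0.00606 from limma over probe sets) and the dimmer was not called (-0.24, adjusted p = 0.135).

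Protein levels of p21, p27 and p57 depend on ubiquitin ligases and their partners, and these arrays read RNA only. Of 17 measured genes of this group, 1 was called lower and 16 were not called (median -0.014), where 9.57% of all genes were called lower. The called gene was Ubac1, a subunit of a ligase that takes p27 (330 ± 8.90 in Dnajb4-/- and 397 ± 21.9 in Dnajb4+/+ livers, n = 3 each, SD; -0.26, adjusted p = 0.0167 from limma), and its call was lost without Dnajb4-/- replicate 1 or 2 (adjusted p = 0.0588 and 0.0534). Skp2, which recognises phosphorylated p27, stood at 26.2 in Dnajb4-/- and 25.7 in Dnajb4+/+ livers (0.026, adjusted p = 0.802 from limma). Of its 6 probe sets, only the brightest and the next brightest were above the 95th percentile of the sensory receptor genes on every array. Another was above it on 1 of 3 Dnajb4-/- and 2 of 3 Dnajb4+/+ arrays, and the rest on none. Of 18 regulators of the INK4 genes, 3 were called lower, 0 higher, and 15 not called (median -0.051), beside 9.57% lower and 5.09% higher over all genes. They were the Polycomb genes Ring1 (-0.27, adjusted p = 0.00880 from limma) and Ezh2 (-0.20, adjusted p = 0.0226), whose complexes are known to silence the locus of Cdkn2a and Cdkn2b, and the growth factor gene Tgfb1 (-0.20, adjusted p = 0.0221), known as an inducer of p15. The Ring1 call held in 16 of 16 alternatives, while that of Ezh2 was lost without any 1 array other than Dnajb4+/+ replicate 2 (adjusted p = 0.0636 to 0.0685 from limma) and that of Tgfb1 without any 1 array other than Dnajb4-/- replicate 3 (adjusted p = 0.0543 to 0.0713). The probe sets of Tgfb1 disagreed (-0.43 and 0.030 on the log2 scale).

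Several groups of genes separated the same arrays as Cdkn1a did, where 5.09% of all genes were called higher and 9.57% lower. Of 18 measured core clock genes 5 were called higher, 11 lower and 2 not called, with Arntl, the clock activator gene, at 1.24, Ciart at -1.67 and Dbp, an output factor of the clock, at -3.05 (adjusted p = 1.67e-05, 0.000579 and 1.59e-07 from limma). Of 13 measured female-biased liver genes 1 was not called and 12 were called lower, among them Sult3a1 (-7.02), Cyp2b9 (-5.55) and Sult2a2 (-5.48). Their Dnajb4-/- means were 34.8, 21.4 and 14.6. Of the 3 Dnajb4-/- arrays, Sult3a1 was above the 95th percentile of the sensory receptor genes on 1, and Cyp2b9 and Sult2a2 on 0. Of 10 skeletal muscle markers 10 were lower, with summed intensities of 336 to 351 in Dnajb4-/- and 733 to 793 in Dnajb4+/+ arrays, and of 10 Kupffer cell and macrophage markers 9 were lower, at 3474 to 3630 in Dnajb4-/- and 4544 to 4752 in Dnajb4+/+ arrays. Of 9 hepatocyte markers 2 were higher, 2 lower and 5 not called, at 121519 to 122656 in Dnajb4-/- and 124331 to 124900 in Dnajb4+/+ arrays. No value of the table is 0. The part of these groups in the differences of Cdkn1a, Cdkn1b and Cdkn2c was not tested.

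Among smaller marker lists, 4 of 9 endothelial genes were lower, with sums of 1647 to 1729 in Dnajb4-/- and 1866 to 1957 in Dnajb4+/+ arrays, 2 of 6 neutrophil genes were lower (206 to 219 in Dnajb4-/- and 244 to 256 in Dnajb4+/+ arrays), and 1 of 9 stellate cell genes was lower (867 to 908 in Dnajb4-/- and 936 to 946 in Dnajb4+/+ arrays). Of 6 cholangiocyte markers 1 was higher (185 to 189 in Dnajb4-/- and 159 to 176 in Dnajb4+/+ arrays). The sums of 4 erythroid genes (1479 to 1534 in Dnajb4-/- and 1513 to 1558 in Dnajb4+/+ arrays) and of 10 T, B and NK cell genes (267 to 277 in Dnajb4-/- and 266 to 272 in Dnajb4+/+ arrays) overlapped between the genotypes, with 0 and 1 genes called. These counts stand beside 5.09% higher and 9.57% lower over all genes.

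The genes most like Cdkn1a over the 6 arrays were sought among 97 genes whose SD was at least 0.5 on the log2 scale. Symbols that start with Gm or LOC or hold Rik had been left out. The highest Pearson's r were those of Arntl (0.9984), the membrane transporter gene Slc45a3 (0.9983), the glucuronosyltransferase gene Ugt2b38 (0.9979), the fatty acid elongase gene Elovl3 (0.9975) and the tubulin gene Tubb2a (0.9974). The lowest were those of Xist (-0.9992), the steroid hydroxylase gene Cyp17a1 (-0.9985), Cyp4a14 (-0.9985), Dbp (-0.9983) and Sult3a1 (-0.9981). With 3 arrays on either side of a wide gap, r over these 6 points is set almost wholly by the gap between the genotypes. The probe sets of Arntl disagreed, at 2.34 and 0.14 on the log2 scale, and only the first was called.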

How the data were processed

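The authors extracted liver RNA (with TRIzol per the labels, TRI Reagent per the methods), hybridised labelled RNA to Affymetrix Mouse Genome 430 2.0 arrays and processed them in GeneSpring by GCRMA with global median centring. What they deposited is 1 intensity per probe set and array, not log transformed. Of 45101 probe sets, 64 controls, 932 with several symbols and 9160 with none were left out, and 34945 gave 18193 genes. Gene symbols came from the platform annotation, and 99.4% of these probe sets matched the RefSeq genes of GRCm38.p6, which supplied positions and start windows. The methods state a mean over probe sets for genes with several, without its scale. Here log2 values were averaged (a linear mean was an alternative), and the genotypes (3 arrays each) were compared with limma 3.58.1 (lmFit, eBayes) in R 4.3.3, two-sided, without a filter or block, with Benjamini-Hochberg adjustment over all genes or all probe sets. All differences are Dnajb4-/- minus Dnajb4+/+. The script was tested on simulated data. Plots were made in python 3.11.15 (matplotlib 3.10.9). The 8 genes, the gene lists and the rules were chosen with earlier results of these data known. Named are all 8 genes, up to 4 called genes per pathway list with the largest difference, up to 3 of the clock and female-high lists, and the 5 genes at each end of the likeness to Cdkn1a. Cdk1, Cdk2, Cdk4, Cdk6, Ccne1, Pcna, Sp3, Nfe2l2, Egr1, Cebpa, Stat3, Mdm2, Ccng1, Skp2 and the genes next to the CDK inhibitor genes were added for their roles or places after their values were seen. The number of arrays limits the precision, and 16 alternatives were run.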

Additional observations from a re-analysis of the deposited data

How the results depend on the processing

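Over 16 alternatives the 8 CDK inhibitor genes kept their calls (Cdkn1a higher, Cdkn1b and Cdkn2c lower) except that Cdkn1c was also called lower without Dnajb4+/+ replicate 1 (-0.27). Cdkn2a, Cdkn2b and Cdkn3 were not among the genes above the median signal, and gave 15 alternatives each. Of the 10 probe sets, 2 in place of 3 were called lower in 8 of 13 alternatives, and the dimmer Cdkn1b probe set lost its call in 8. With 16 added to each value the Cdkn1b difference was -0.25, which moved it by more than its SD. The counts over all genes moved more than those over the 8. Centring on the brighter probe sets gave 1526 genes higher in place of 926, and the share of higher among all calls was 52.2% in place of 34.7% (44.5% after quantile normalization). Leaving out 1 array gave 516 to 657 genes higher and 1036 to 1352 lower, in place of 926 and 1741. The replicate block gave 505 higher and 1024 lower, with Cdkn1a at 1.70. Same-numbered arrays of the genotypes did not deviate together (r of -0.021, -0.14 and 0.0091). With 3 arrays per genotype this cannot settle whether the numbers pair mice. Of the called list genes named, Lin37, Rbl2, Klf6, Ddb2, Ubac1, Ezh2, Tgfb1, Birc5, Mcm6, Cenpa, Cdk1, Ccne1 and Nfe2l2 lost their call in 1 or more alternatives, with the same direction. Of those not called, Cdk6 was called lower on its brightest probe set (-0.28) and among the genes above the median signal (-0.11). Near 0, Cdk2 changed sign with quantile normalization (0.0011) and with centring on brighter probe sets (0.0086), and Skp2 on its brightest probe set (-0.0064). When 1 array was left out, Cdk2 ran between -0.074 and 0.014, Mdm2 between -0.10 and 0.0042, and Skp2 between -0.017 and 0.062. The cause was not tested.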

Other observations

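The genes beside each CDK inhibitor gene on its chromosome, 3 measured genes on either side, were looked up after the values were seen. Of 42 such genes 3 were called higher and 6 lower, where 5.09% and 9.57% of all genes were. Near Cdkn1a, 1 of 6 was called, the splicing factor gene Srsf3 (198 in Dnajb4-/- and 172 in Dnajb4+/+ livers, 0.21, adjusted p = 0.0173 from limma). Near Cdkn1b 0 of 6 were called, and the largest difference there was that of Apold1 (-0.11, adjusted p = 0.224 from limma). Near Cdkn2c, Faf1 was lower (266 in Dnajb4-/- and 316 in Dnajb4+/+ livers, -0.25, adjusted p = 0.0119 from limma) and Rnf11 higher (306 in Dnajb4-/- and 264 in Dnajb4+/+ livers, 0.21, adjusted p = 0.0418 from limma). In the imprinted domain of Cdkn1c, Slc22a18 (-0.20, adjusted p = 0.0172 from limma) and Nap1l4 (-0.24, adjusted p = 0.0318 from limma) were lower. Near Cdkn2d, S1pr5 (50.3 in Dnajb4-/- and 65.4 in Dnajb4+/+ livers, -0.38, adjusted p = 0.0163 from limma) and Atg4d (-0.27, adjusted p = 0.0288 from limma) were lower. Near Cdkn3, Gmfb was lower (-0.27, adjusted p = 0.0118 from limma) and Cnih1 higher (0.13, adjusted p = 0.0454 from limma). The calls of these 9 genes were lost in 2 (Gmfb), 4 (Srsf3, Faf1 and S1pr5), 5 (Slc22a18), 6 (Nap1l4), 7 (Atg4d), 8 (Cnih1) and 9 (Rnf11) of 16 alternatives. The brightest probe sets of Srsf3 (0.074), Faf1 (-0.082), Rnf11 (0.14) and Slc22a18 (-0.14) were not called (adjusted p = 0.0931 to 0.340 from limma over probe sets). For each of Srsf3, Faf1, Rnf11 and Slc22a18 a dimmer probe set was called. Without 1 array the adjusted p from limma reached 0.0636 for Srsf3, 0.0604 for Slc22a18, 0.0854 for Nap1l4, 0.122 for Rnf11, 0.0539 for S1pr5, 0.0868 for Atg4d and 0.128 for Cnih1.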
